A study of Mus musculus with 2 samples.

Results

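The loci described here are the mouse microRNA (miRNA) genes that the GENCODE M21 annotation names with Gm and a number, the form of name given to a gene model without an established symbol. They were all genes of the deposited count tables with such a name, 1021 of 2202 counted miRNA genes, on 21 chromosomes. They carry 1020 different names and 872 different sequences. Of the 1021, 9 overlap a miRNA gene named Mir or Mirlet on the other strand by at least 1 base, and the other 1012 do not. The study sequenced small RNA from cerebral cortex of the mouse strain B6NCrl in 2 libraries of 1 untreated group, which the labels describe as wild-type female controls and number as biological replicates 1 and 2. The fields for sex and age were left unfilled, and a single donor record is given for both libraries. Separate animals are therefore not stated, and SDs measure only the spread between these libraries, which may be technical.

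A miRNA gene is transcribed as a longer RNA that folds back on itself into a hairpin, from which the enzymes Drosha and Dicer release a short mature strand. The mature strand guides Argonaute proteins to messenger RNAs, chiefly through its seed, the bases near its 5′ end. Gene models for miRNAs that were made by similarity to known hairpins include copies scattered through repeats and unrelated transcripts, and a model by itself does not show that a mature strand is made. In a strand-specific table, the sense count is the number of uniquely placed reads on the strand of the gene, and the opposite-strand count is the number on the other strand.

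The first set of sequences shows the 3 detected Gm loci for which RefSeq places a mature miRNA at the same mm10 position, with the mature strands in capitals. They are Gm23450 (chr7:3415066-3415156, plus strand), Gm22650 (chrX:146999405-146999509, plus strand) and Gm38670 (chr7:30552828-30552904, plus strand). All locus sequences are GENCODE M21 transcripts on GRCm38 (mm10), written 5′ to 3′ on the strand of the locus.
Gm23450: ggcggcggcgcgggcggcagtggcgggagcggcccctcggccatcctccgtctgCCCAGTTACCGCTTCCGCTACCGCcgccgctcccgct
Gm22650: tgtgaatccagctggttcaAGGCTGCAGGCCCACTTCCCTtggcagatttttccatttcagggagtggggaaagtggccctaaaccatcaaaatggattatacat
Gm38670: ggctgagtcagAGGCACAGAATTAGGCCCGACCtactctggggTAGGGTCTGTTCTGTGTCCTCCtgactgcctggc
The RefSeq mature strands of these loci follow, with the seed (bases 2 to 8) in capitals.
miR-935: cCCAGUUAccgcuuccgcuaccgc
miR-3552: aGGCUGCAggcccacuucccu
miR-9769-5p: aGGCACAGaauuaggcccgacc
miR-9769-3p: uAGGGUCUguucuguguccucc
None of these 4 seeds occurred in another of the 1738 RefSeq mouse mature entries, so the 4 strands fall into 4 seed groups.

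The second set shows 3 detected loci with no RefSeq mature strand of their own. In Gm23873 (chr7:61750468-61750537, minus strand) the capitals mark the longest run shared with a named Mir344 gene, 22 bases that also stand in Mir344d-1. In Gm24589 (chr17:24594978-24595071, plus strand) they mark the first and last 2 bases, since the locus has exactly the ends of an annotated intron of Pkd1. Gm23935 (chr16:11144125-11144181, plus strand) is shown without capitals because the same 57 bases also make up Gm24270 and Gm24245.
Gm23873: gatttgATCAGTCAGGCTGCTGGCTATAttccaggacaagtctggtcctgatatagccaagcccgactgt
Gm24589: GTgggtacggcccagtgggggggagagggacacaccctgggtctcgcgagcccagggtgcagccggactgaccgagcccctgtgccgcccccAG
Gm23935: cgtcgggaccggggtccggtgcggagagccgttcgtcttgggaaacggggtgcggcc

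The third set shows 2 Gm loci that lie antisense to a named miRNA, with the bases that are the complement of its mature strands in capitals. Gm25927 (chr17:17830343-17830459, minus strand) overlaps Mirlet7e and had the highest opposite-strand count. Gm25641 (chr3:88215589-88215696, minus strand) overlaps Mir9-1 and is shown because RefSeq also places a mature miRNA on its own strand.
Gm25927: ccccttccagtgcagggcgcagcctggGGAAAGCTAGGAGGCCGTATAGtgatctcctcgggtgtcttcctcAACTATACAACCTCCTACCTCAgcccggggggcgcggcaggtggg
Gm25641: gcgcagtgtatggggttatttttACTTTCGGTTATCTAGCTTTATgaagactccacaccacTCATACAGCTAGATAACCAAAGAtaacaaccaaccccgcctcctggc
The RefSeq 5p strands of these named genes follow, with their seeds in capitals. The let-7e-5p seed was shared by 11 RefSeq mature entries, itself included, which are the let-7 strands with miR-98-5p and miR-1961.
let-7e-5p: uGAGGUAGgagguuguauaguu
miR-9-5p: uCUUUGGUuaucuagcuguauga

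Replicate 1 held 12506469 reads and replicate 2 held 18276311, of which 4429633 and 6985784 were sense counts in the 2202 genes. A value in CPM (counts per 1000000) is the sense count per 1000000 of that total, and 3 counts, taken as the limit that a count of 0 allows, equal 0.677 CPM (replicate 1) and 0.429 CPM (replicate 2). These limits and all intervals below cover counting error only. Reads placed at several loci enter no gene's count and made up 43.9% and 47.9% of all reads. Of the markers listed for neurons, 5 of 8 miRNA genes were at 2 CPM or more in both libraries. The rest, Mir124a-1, Mir124a-2 and Mir124a-3, were below 2 CPM in at least 1 library. The 2 muscle miRNA genes, Mir1a-1 and Mir133a-1, had 0 counts. Reads that fit several loci are outside these counts, so a low or 0 count of a marker does not show that its miRNA was absent. The summed level of 3 epithelial and sensory markers was 18591 CPM in the first library and 1878 CPM in the second, so the libraries differed in more than counting error. Each library cites a different document on adapter trimming, and trimming and replicate cannot be told apart.

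Most Gm loci had no sense read. A sense count was present in 60 of 1021 (5.88%), beside 787 of all 2202 genes (35.7%). Only 11 (1.08%) reached the detection limit of 2 CPM in both libraries, beside 438 of all genes (19.9%). Of the 60, 15 had a single count over both libraries together, 9 had 2, 17 had 3 to 9, 14 had 10 to 99, 4 had 100 or more but under 1000, and 1 had more than that. Counts stood in both libraries for 35 of the 60, in replicate 1 alone for 12, with at most 3 counts, and in replicate 2 alone for 13, with at most 6.

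Late-numbered Mir genes, the named class set beside the Gm loci, held counts more often. Of the 419 genes named Mir6000 to Mir8299, 237 (56.6%) had a sense count and 85 (20.3%) were detected. Among the 755 other Mir genes, 486 (64.4%) had a count and 339 (44.9%) were detected. The Gm loci together held 5393 sense counts in replicate 1, 0.122% of the total (95% Wilson interval 0.119 to 0.125), and 4671 in replicate 2, 0.0669% (0.0650 to 0.0688). The mean share was 0.0943% ± 0.0388 (SD, n = 2). Genes Mir6000 to Mir8299 held 0.288% ± 0.0997, and the other Mir genes held 99.6% ± 0.127.

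**Figure D1:**
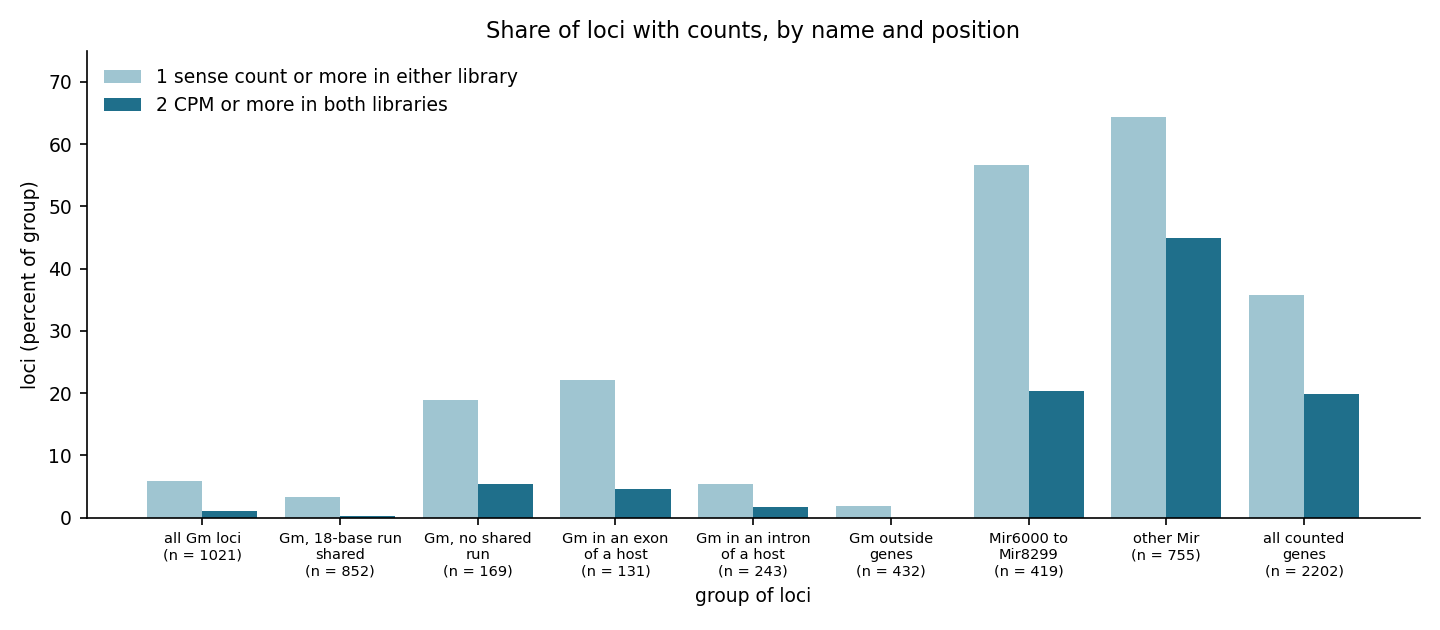
Percent of loci in each group (y axis, from 0) with at least 1 sense count in either library (light bars) and at 2 CPM or more in both libraries (dark bars), with the number of loci under each group. Counts stood in 5.88% of Gm loci and in 64.4% of the other Mir genes, and among Gm loci the share was 18.9% without and 3.29% with a shared run of 18 bases.

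A single locus, Gm23450, carried most of the Gm counts. It had 4805 sense counts in replicate 1 and 4016 in replicate 2, which was 89.1% (95% Wilson interval 88.2 to 89.9) and 86.0% (85.0 to 86.9) of all Gm counts. Its level was 1085 CPM in replicate 1 against 575 CPM in replicate 2, with a mean of 830 ± 361 CPM (SD, n = 2) and rank 104 among all counted genes. The locus is 91 bases long with 79.1% GC and lies on the coding strand within a coding exon of Cacng8, which encodes an auxiliary subunit of AMPA-type glutamate receptors. Without Gm23450 the other 1020 loci held 588 and 655 sense counts, a mean share of 0.0113% ± 0.00276. The counts are per locus and do not show which bases the reads covered.

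The next loci were far lower, with mean levels from 17.9 down to 2.42 CPM. CPM is not divided by length, and the 11 detected loci are 57 to 111 bases long, so the order among them is one of reads per locus. Gm23873 had 90 sense counts in replicate 1 (20.3 CPM) and 108 in replicate 2 (15.5 CPM), a mean of 17.9 ± 3.43 CPM. It lies in an intron of the long noncoding RNA A230057D06Rik. Gm22650, which holds miR-3552, had 77 counts (17.4 CPM) and 96 counts (13.7 CPM), a mean of 15.6 ± 2.57 CPM. It lies in an intron of Htr2c, the gene of a serotonin receptor. Gm24589, in Pkd1, the gene of the membrane protein polycystin-1, had 87 counts (19.6 CPM) and 66 counts (9.45 CPM), a mean of 14.5 ± 7.21 CPM. The ranges of these 3 loci over the libraries overlap, so their order is not resolved.

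A pair of detected loci lie over annotated small nucleolar RNAs (snoRNAs), which guide chemical modification of other RNAs. Gm49347 (chr18:35557132-35557242, plus strand) overlaps Snora74a and had 38 counts (8.58 CPM) and 88 counts (12.6 CPM). Gm47277 (chr8:13876091-13876184, plus strand) overlaps the snoRNA model Gm24698 in an intron of Champ1, which encodes a zinc finger protein of chromosome alignment. It had 42 counts (9.48 CPM) and 55 counts (7.87 CPM). In all, 21 of 1021 Gm loci overlap another class of small RNA on their strand, beside 37 of all 2202 genes. Of the 21, 3 had a count and 2 were detected, and 16 share a run of 18 bases with another counted gene. Of 12 such genes among the other Mir genes, 10 had a count. Whether the reads of Gm49347 and Gm47277 were miRNA strands or pieces of the snoRNA was not tested.

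Several of the remaining detected loci lie at the starts of protein-coding genes. Gm23394 (chr12:55821063-55821153, minus strand) lies in the 5′ UTR of Ralgapa1, a subunit of a complex that switches off Ral GTPases, and had 54 counts (12.2 CPM) and 34 counts (4.87 CPM). Gm26117 (chr15:74563821-74563915, plus strand) crosses the edge of a 5′ UTR exon of Adgrb1, an adhesion receptor abundant in brain, and had 28 counts (6.32 CPM) and 24 counts (3.44 CPM). Gm27920 (chr10:123196876-123196971, minus strand) covers 5′ UTR and coding bases of Usp15, a deubiquitinating enzyme, and had 22 counts (4.97 CPM) and 15 counts (2.15 CPM). All 3 had the higher CPM in replicate 1.

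Gm23935 lies opposite an intron of Zc3h7a and had 35 counts (7.90 CPM) and 21 counts (3.01 CPM). Its identical copy Gm24270, in an intron of Peak1 on chromosome 9, had 4 and 7 counts, and the remaining copy, Gm24245 on chromosome 4, had 1 and 0. Reads that fit more than 1 copy are in no gene's count, so the total for the shared sequence is not known, and the basis on which the counted reads were placed at a single copy is not given in the tables. Gm38670, within a noncoding exon of Hspb6, the gene of a small heat shock protein, had 10 counts (2.26 CPM) and 18 counts (2.58 CPM) and had the lowest mean of the 11, while in replicate 2 Gm27920 was lower. Just outside the detection limit were Gm25745, in Hsp90b1, with 11 counts (2.48 CPM) and 7 counts (1.00 CPM), and Gm27322, at the edge of a Smurf2 exon, with 13 counts (2.93 CPM) and 3 counts (0.429 CPM).

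**Figure D2:**
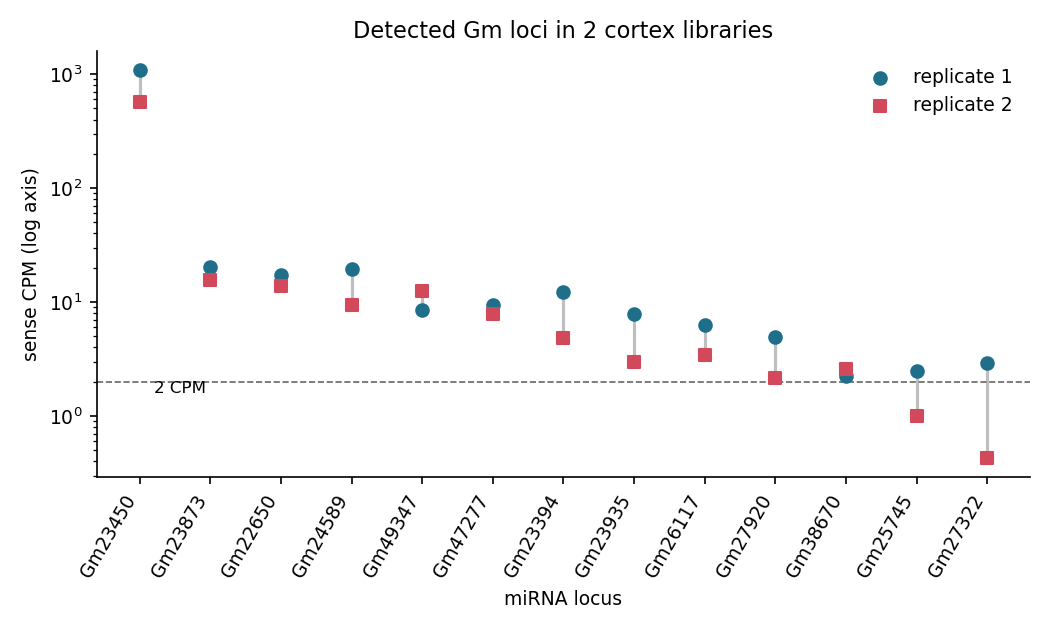
Sense CPM (y axis, log scale) of the 11 detected Gm loci in order of mean level, followed by Gm25745 and Gm27322, which missed the limit of 2 CPM (dashed line) in replicate 2. Circles are replicate 1, squares are replicate 2, and grey lines join the libraries. Gm23450 stands at 1085 and 575 CPM, and all others lie at or under 20.3 CPM.

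The 9 Gm loci antisense to a named miRNA had 0 sense counts in both libraries, and the reads on their other strand matched those of the named gene. By definition a read of the named gene inside the overlap enters both counts, so this match is not a separate result. Gm25927 had 86303 opposite-strand counts in replicate 1 and 158389 in replicate 2, equal to the sense counts of Mirlet7e, a let-7 gene, in both. Gm24083 (chr9:108568295-108568414, minus strand) had 22725 and 72491, equal to Mir191. Gm25301 (chr18:61397813-61397925, plus strand) had 13854 and 19820, where Mir378a had 13854 and 19819, and this difference of 1 count was the only one among the 9. Gm24321 (chr12:109743158-109743237, minus strand) had 11169 and 16836, equal to Mir409, a gene of the imprinted Dlk1-Dio3 array. These antisense loci therefore contributed nothing to the Gm totals above.

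The smaller pairs followed the same equality. Gm25750 had 282 and 1185 opposite-strand counts with Mir380, Gm25252 had 253 and 509 with Mir376a, and Gm44322 had 239 and 258 with Mir539, all on chromosome 12 in the Dlk1-Dio3 array. Gm24111 had 132 and 449 with Mirlet7f-1, and Gm25641 had 49 and 449 with Mir9-1. The overlap covered 54.5% to 98.8% of the Gm locus. RefSeq places miR-9b-5p and miR-9b-3p on the strand of Gm25641, which had 0 sense counts. It shares a run of 18 bases with 2 other counted genes, and reads that fit several loci would not be counted.

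The either-strand column treated these pairs differently. All 9 named partners had 0 counts in it in both libraries, although their sense counts summed to 135006 in replicate 1 and 270385 in replicate 2. These sums are 3.05% and 3.87% of all sense counts, and equal in size to 62.1% and 68.8% of the reads that the column lists as ambiguous. The sense column lists 0 ambiguous reads in both libraries. Among the 9 antisense Gm loci only Gm25301 had an either-strand count, 1 in replicate 2. Away from named miRNAs, opposite-strand reads were few, 13 in replicate 1 and 17 in replicate 2 over 10 of the 1012 other Gm loci.

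**Figure D3:**
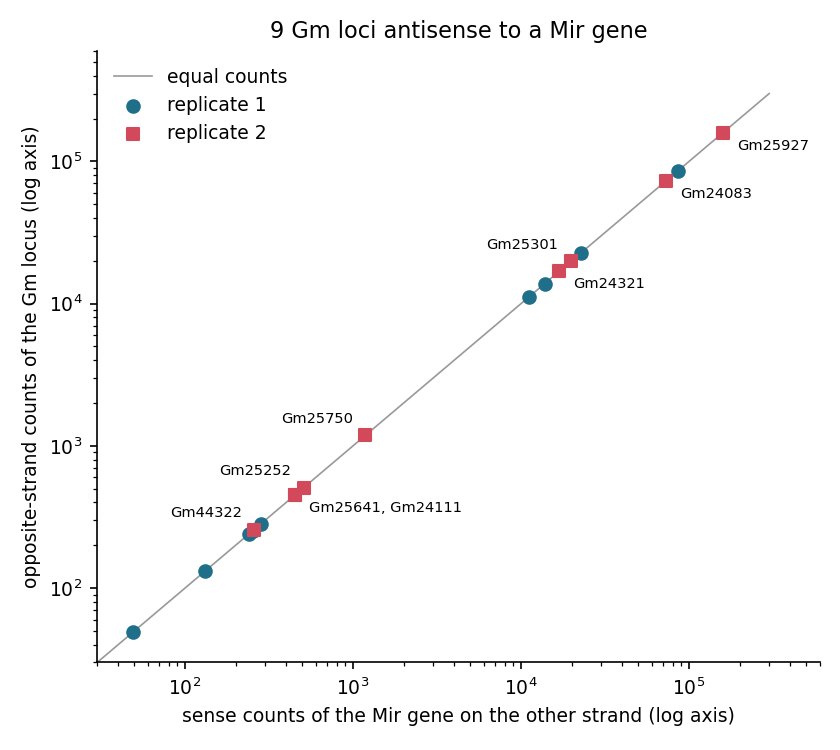
Opposite-strand counts of the 9 Gm loci antisense to a Mir or Mirlet gene (y axis, log scale) against the sense counts of that gene (x axis, log scale) in replicate 1 (circles) and replicate 2 (squares), with the line of equal counts. All 18 points lie on the line to within 1 count, from 49 to 158389 counts.

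Most Gm loci shared sequence with other loci. A run of 18 bases, on either strand, was shared with at least 1 other counted gene by 852 of 1021 (83.4%), beside 24 of 419 genes Mir6000 to Mir8299 (5.73%) and 256 of 755 other Mir genes (33.9%). Of the 852, 28 (3.29%) had a sense count and 2 were detected, Gm23873 and Gm23935. Of the 169 with no shared run, 32 (18.9%) had a count and 9 (5.33%) were detected. The same comparison gave 20.8% against 58.7% with a count for genes Mir6000 to Mir8299, and 47.7% against 72.9% for the other Mir genes. A read that fits several loci is in no gene's count, and how far that set the number of empty loci was not tested.

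Full copies were nearly all empty. There were 196 Gm loci in 47 sets of identical sequence, the largest of 27 loci, and the set of Gm23935 was the only one with a sense count. The mature strand of a named Mir gene stood inside 227 Gm loci, of which 3 had a count, each below 1 CPM in both libraries. The most copied was miR-680, inside 83 loci on 20 chromosomes, followed by miR-3471 in 50 and miR-3470b in 44. None of these loci had a sense count, nor did the Mir680, Mir3471-1 and Mir3470b genes. Reads that fit more than 1 locus are in no gene's count, so zeros in this paragraph do not show that a copy gave no reads. The 2 most copied strands are printed with their seeds in capitals.
miR-680: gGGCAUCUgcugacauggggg
miR-3471: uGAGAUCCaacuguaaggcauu

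RefSeq places a mature miRNA at the position of 11 Gm loci, of which 5 had a count and 3 were detected. Beside Gm23450, Gm22650 and Gm38670, the counted loci were Gm38671 with miR-9768, at 5 and 4 counts in the 5′ UTR of Mcf2l, and Gm23363 with miR-3154, at 1 and 2 counts. The loci Gm24195 (miR-1271), Gm24627 (miR-1911), Gm24572 (miR-3618), Gm25641 (miR-9b), and the pair Gm27775 and Gm27740 (both miR-6967) had 0 sense counts in both libraries. For the pair, a read that fits both loci would not be counted.

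The position in a host gene also differed between loci with and without counts. Of 131 Gm loci that overlap an exon on their own strand, 29 (22.1%) had a count and 6 were detected. Of 243 in an intron on their strand, 13 (5.35%) had a count and 4 were detected. Of 215 whose only host is on the other strand, 10 had a count and 1, Gm23935, was detected. Of 432 outside annotated genes, 8 (1.85%) had a count and none was detected. A shared run of 18 bases stood in 67.9% of the exonic and 85.2% of the intronic Gm loci. It stood in 77.7% of those with a host only on the other strand and 90.0% of those outside genes. The part of shared sequence in these count differences was not tested. Among genes Mir6000 to Mir8299 a count stood in 60 of 92 exonic, 164 of 234 intronic and 9 of 58 genes outside others. There the intronic genes had a count more often than the exonic ones. For the other Mir genes it was 134 of 171, 205 of 328 and 110 of 180. Across exonic, intronic and outside genes, that order was the same as in the Gm loci. With a host only on the other strand, a count stood in 4 of 35 genes Mir6000 to Mir8299 and 37 of 76 other Mir genes. Both shares were below those of the genes outside others, unlike in the Gm loci. Among the exonic Gm loci, 32 overlap a 5′ UTR, of which 16 had a count. Of such genes a count stood in 15 of 16 named Mir6000 to Mir8299 and in 14 of 18 other Mir genes. Exon loci with low counts included Gm25749 in Gria2, a glutamate receptor gene, with 1 and 5 counts, and Gm23634 at the edge of a 5′ UTR exon of Stmn1, a regulator of microtubules abundant in neurons, with 2 and 13 counts. Whether the reads of exonic loci came from the host messenger RNA was not tested.

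Gm loci with counts had a lower median length and a higher median GC content than those without, as did genes Mir6000 to Mir8299. The median GC content was 64.0% over the 60 with a count, beside 50% over the 961 without. Median length was 91 against 104 bases, and the median minimum free energy per base from RNAfold was -0.395 against -0.318 kcal/mol. For genes Mir6000 to Mir8299 with against without a count, the medians were 57.8% against 50.5% GC, 64 against 94.5 bases and -0.403 against -0.330 kcal/mol per base. For the other Mir genes they were 50.5% against 43.4% GC and -0.434 against -0.394 kcal/mol per base, with 83 bases in both. The direction of the GC difference was thus the same in all 3 classes. Of the 11 detected Gm loci, 5 had a GC content of 70% or more (Gm23450, Gm24589, Gm23935, Gm26117 and Gm27920), and Gm26117 was the highest at 91.6%. A GC-rich sequence folds to a lower energy by composition alone, so the 2 measures are not separate.

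**Figure D4:**
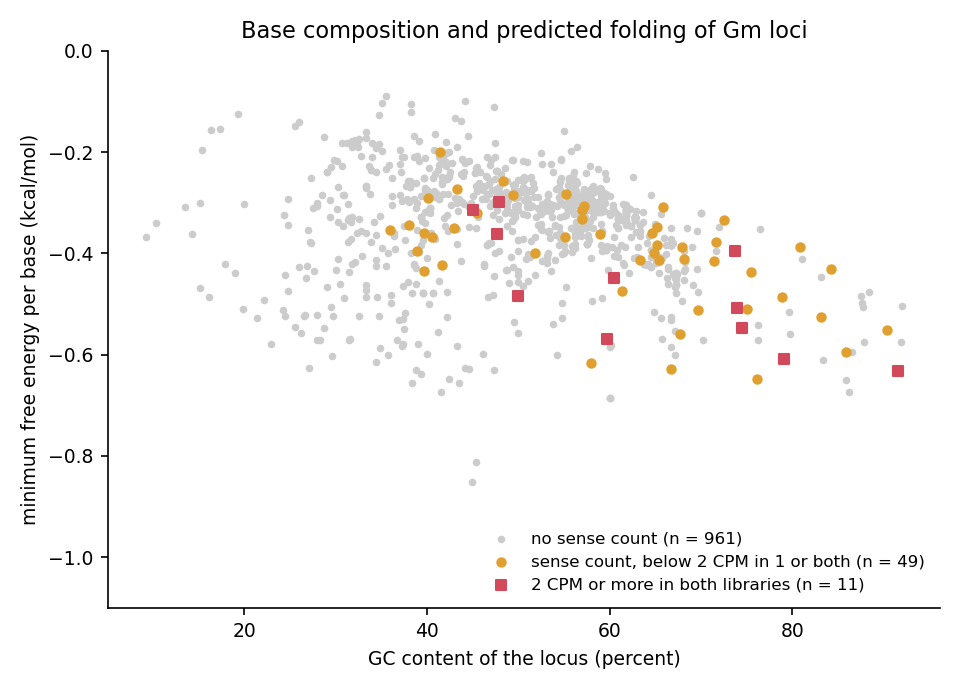
Minimum free energy per base from RNAfold (y axis, kcal/mol) against GC content (x axis, percent) for the 1021 Gm loci, with 961 loci without a sense count in grey, 49 with a count but below 2 CPM in at least 1 library in orange and the 11 detected as red squares. Loci with counts have a median GC content of 64.0%, and those without have 50%.

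In the Htr2c introns on chromosome X, Gm22650 stands with named miRNA genes. Mir764 had 173 and 258 sense counts, Mir1298 had 1111 and 6143, Mir448 had 45 and 181, Mir1264 had 38 and 196, and Mir1912 had 0 and 5. Gm24627 in the same array had 0 in both. The 5 named genes summed to 1367 counts in replicate 1 and 6783 in replicate 2, while Gm22650 had 77 and 96. Mir1298 led the array in both libraries, and Gm22650 stood below Mir764 in both.

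The Mir344 array on chromosome 7 spans 411 kb and holds 7 Gm loci and 13 named Mir344 genes. Of the Gm loci, Gm23873 had 90 and 108 counts, Gm24923 had 1 and 3, and the other 5 had none. Of the named genes 8 had a count and 3 were detected, led by Mir344b with 189 and 236 counts, Mir344d-3 with 86 and 219, and Mir344g with 51 and 105. In replicate 1 only Mir344b had more counts than Gm23873, and in replicate 2 only Mir344b and Mir344d-3 had. Mir344d-1 had 7 and 17 counts, and reads falling wholly in the 22 bases it shares with Gm23873 fit both loci, so such reads would be in neither count. Gm23873 also shares runs of 18 to 20 bases with Mir344d-2, Mir344c, Mir344h-1, Mir344h-2 and Mir344e. The order within the array is therefore one of uniquely placed reads.

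The counts of the detected Gm loci in the 2 libraries were set against those of all detected genes. For each of the 438 detected genes, an exact binomial test (two-sided) asked whether the split of its sense reads differed from that of the TMM-scaled library sizes. Calls needed an adjusted p (Benjamini-Hochberg) under 0.05 together with a difference of 2 times or more. The test sets 1 library against another and not conditions. Its p-values measure counting error alone and hold no estimate of the spread between libraries. That spread was far larger than counting error over all genes with a count (chi-square per degree of freedom 681). This value grows with the counts of the genes, so it does not give the spread at the lower counts of most detected Gm loci. Of the 11 Gm loci 3 were called, all higher in replicate 1, beside 79 of 438 genes called in either direction (18%), 38 called higher in replicate 1 (8.68%) and 41 called higher in replicate 2 (9.36%). With 11 loci, this share of 27.3% is not told apart from that of all genes, and with TMM over all 2202 genes it was 2 of 11 beside 17.1%. Gm23394 had a log2 ratio of replicate 2 over replicate 1 of -1.19 (95% counting interval -1.86 to -0.55, adjusted p = 0.00025 by the exact binomial test). For Gm23935 it was -1.26 (-2.12 to -0.45, adjusted p = 0.00273), and for Gm27920 it was -1.07 (-2.14 to -0.07, adjusted p = 0.0447). The call of Gm27920 depends on the genes used for scaling, since with TMM over all 2202 genes its adjusted p was 0.0678 and its log2 ratio -0.97, under the ratio limit.

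Other Gm loci passed the adjusted p but not the ratio limit. Gm23450 had a log2 ratio of -0.79 (-0.85 to -0.73, adjusted p = 1.24e-144 by the exact binomial test), and Gm24589 one of -0.93 (-1.41 to -0.45, adjusted p = 0.000147). With library totals in place of TMM, Gm24589 was called too, at -1.05. Gm49347 passed the adjusted p with the higher level in replicate 2, at 0.67 (0.12 to 1.27, adjusted p = 0.0231 by the exact binomial test), but not with library totals, at 0.54 (adjusted p = 0.0803). The ratios of Gm23873, Gm22650, Gm47277, Gm26117 and Gm38670 did not pass, with intervals that include 0. With library totals the adjusted p of Gm26117 was 0.0493 by the exact binomial test, at a log2 ratio of -0.88, still under the ratio limit.

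Over the 11 detected Gm loci the median log2 ratio was -0.75, with 9 lower in replicate 2. Over all 438 detected genes the median was -0.03, with 229 lower in replicate 2. Under a mean of 20 CPM, 8 of 10 Gm loci were lower in replicate 2, beside 103 of all 165 genes. GC content moved with the log2 ratio. All 5 detected Gm loci at 70% GC or more were lower in replicate 2, with a median of -0.93, and so were all 11 other detected genes at that GC content, with a median of -0.78. At lower GC the medians were -0.18 over 6 Gm loci and -0.01 over 416 other genes. The limit of 70% was chosen after these values were seen, and the part of GC content, of trimming or of the tissue samples in the difference was not tested.

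**Figure D5:**
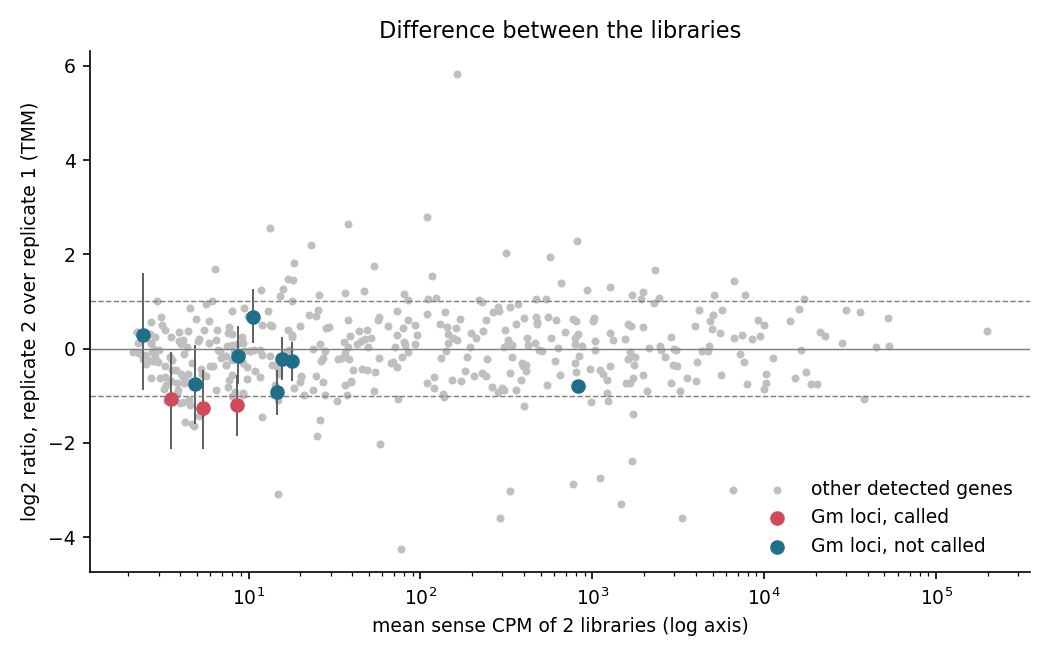
Log2 ratio of replicate 2 over replicate 1 with TMM scaling (y axis) against mean sense CPM (x axis, log scale) for the 438 detected genes, with the 11 Gm loci in colour and their 95% counting intervals as bars. Dashed lines mark a ratio of 2 either way. The 3 called Gm loci (red) lie below the lower line, and 9 of 11 Gm loci lie below 0, beside 229 of all 438 genes.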

How the data were processed

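Small RNA of mouse cortex was sequenced in 2 libraries. The authors deposited 1 table of raw counts per library with 3 columns (either strand, and each strand apart), made on mm10 with M21 gene models, per the labels and a readme that came with them. Neither the aligner nor the counter was given in the sources used here. The 4 summary lines that name no gene were left out of totals. The stranded column with the larger total was taken as sense, and CPM was computed over its 2202 genes. Host genes and sequences came from GENCODE M21, and mature strands from RefSeq (GRCm38.p6). RNAfold 2.7.2 gave folding energies. With 1 group there was no contrast for a quasi-likelihood test, so the libraries were compared by the exact binomial test with 0.5 counts added for log2 ratios (scipy 1.17.1). The test was tried on simulated counts that held counting error alone. That trial does not cover the spread between these libraries.

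TMM (edgeR 4.0.16) and DESeq2 1.42.0 size factors were first run over all 2202 genes, where TMM called 75 genes and 2 Gm loci. After these results were seen they were changed to the 438 genes at 2 CPM or more in both libraries, where TMM called 79 genes and 3 Gm loci. The detected-gene scaling is the one reported because its median log2 ratio over detected genes, -0.03, was that of an earlier description of these data, which does not name the genes used.

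Loci were named where detected, called, or among the 5 antisense loci of highest opposite-strand count, with the genes they overlap, and sequences were set for those with 100 or more counts and the top antisense locus. Gm49347 met that rule too, and its sequence is not used here. All other loci and sequences, and the groups by own mature strand, identical sequence and whole intron, were chosen after values were seen. The members and lists were chosen with earlier results of these data known.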

Additional observations from a re-analysis of the deposited data

Results flagged for a closer look

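Among the Gm loci with no named miRNA on the other strand, Gm24970 was the only one whose opposite-strand reads passed 3 counts in both libraries. It had 5 opposite-strand counts in replicate 1 and 5 in replicate 2, and 0 sense counts in both. These reads stand in the column that the comparisons do not use. On that strand the locus lies in an intron of Pknox1, and on its own strand in an exon of a noncoding RNA.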

How the results depend on the processing

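The number of detected Gm loci was 13 at 1 CPM and 3 at 10 CPM in place of 2 CPM, for all Gm loci and for those without a named miRNA on the other strand, and 11 with the either-strand column. With either library alone it was 11 to 13, while the antisense loci stayed at 0. The share of sense counts was 0.0669% to 0.122% with 1 library left out and 0.0113% without Gm23450, an alternative chosen after seeing the data. The number of Gm loci called different between the libraries was 3 in the reported setting, 4 with library totals and 3 with DESeq2 size factors, with every counted gene tested or with the either-strand column. Over all genes the calls were 84 of 438 (19.2%) with library totals and 78 of 438 (17.8%) with DESeq2 size factors. With the either-strand column they were 71 of 415 (17.1%). With every counted gene tested, 60 Gm loci entered the test in place of 11, and Gm27322 was called and Gm27920 was not. There the 3 of 60 Gm loci were a lower share than the 94 of 787 genes called (11.9%). In the reported setting, 3 of 11 was a higher share than 79 of 438. The number of Gm loci called was 6 with a ratio limit of 1.5, where 171 of 438 genes were called (39.0%). With scaling over all 2202 genes, the setting run first and listed here as an added alternative, 2 were called with TMM and 2 with DESeq2, and Gm27920 was the one lost. TMM over all genes moved the median log2 ratio of detected genes from -0.03 to 0.06, and library totals moved it to -0.16. No direction of a detected Gm locus reversed under these scalings. No paired analysis was possible because there is only 1 group. With 2 libraries, the SD is from 2 values. In uniquely placed reads, a locus with 0 counts may lie anywhere under 0.677 CPM (replicate 1) or 0.429 CPM (replicate 2). Reads that fit several loci are outside this limit. Of the 961 Gm loci with no sense count, 824 share a run of 18 bases with another counted gene. Over the 787 genes with a count the libraries differed by more than sampling noise, which a technical difference can also give.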
